A study of Mus musculus with 8 samples.

Results

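The genes described here are 10 transcripts by which GABAergic interneurons of the cerebral cortex are commonly recognised: Gad1, Gad2, Pvalb, Sst, Vip, Npy, Cck, Calb1, Calb2 and Reln. They were taken by symbol from a deposited table of raw read counts that holds 22869 gene symbols, and each of the 10 had exactly 1 row there. Of the 8 libraries, 4 came from bexarotene-treated mice and 4 from vehicle mice, which received 0.2 mg/kg glycerol. Bexarotene is a ligand that activates the retinoid X receptor. All libraries were made from the cortex of C57BL/6 mice with the APP/PS1 transgenes, a line that forms amyloid plaques, in both groups alike. The sources used here do not give the bexarotene dose, the length of treatment, or the age or sex of the mice. They also do not say that each library is a separate animal, so the p-values speak only of the spread among the libraries.

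GABAergic interneurons make the inhibitory transmitter GABA from glutamate through the glutamate decarboxylases encoded by Gad1 and Gad2. Their main classes in mouse cortex are told apart by the calcium-binding protein parvalbumin, by the peptides somatostatin and vasoactive intestinal peptide, and by further peptides and calcium binders that several classes share. None of these transcripts is exclusive to cortex: Gad1, Gad2, Sst, Npy, Calb1 and Calb2 are also made by neurons of the striatum or other forebrain regions, and Cck and Calb1 by excitatory cortical neurons. In bulk tissue, fewer cells of a type and less RNA per cell cannot be told apart.

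Several libraries stood apart in ways that touch these genes. The labelled tissue was checked against 7 markers of excitatory cortical neurons, whose summed level lay between 3929 and 5599 CPM (the read count relative to library size, after TMM scaling) in bexarotene libraries and between 3879 and 5453.5 CPM in vehicle libraries. Bexarotene replicates 1 and 3 and vehicle replicate 1 held the highest summed level of 10 markers of striatal projection neurons, at 1152, 845 and 613 CPM, while the other 5 libraries had 205 to 306 CPM. On the first principal component of all genes tested (36.5% of the variance), replicates 1 and 3 of both groups lay apart from replicates 2 and 4. In vehicle libraries that division was also one of Xist (248 and 307 CPM in replicates 1 and 3, at most 0.861 CPM in replicates 2 and 4) and of the summed level of 4 Y-linked genes. All 4 bexarotene libraries held both kinds of transcript. Total counts ranged from 60106192 to 76542067 in bexarotene libraries and from 42413825 to 60955403 in vehicle libraries, and the lowest count of any of the 10 genes in any library was 319, so counting error was small beside the spread between libraries.

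No interneuron marker passed the test between bexarotene and vehicle. By the quasi-likelihood test of edgeR, fitted to all 8 libraries, 0 of the 10 genes had an adjusted p below 0.05 and 0 an unadjusted one. Over all 16069 genes tested, 0.00622% passed the adjusted threshold, and at the unadjusted one 4.88% were higher and 3.89% lower under bexarotene. DESeq2, edgeR's exact test and limma's voom also called 0 of the 10. Over all genes, DESeq2 called 69 higher and 20 lower of 19631. The exact test called 29 higher and 2 lower of 16069, and voom 1 higher and 0 lower of 16069. The bexarotene and vehicle libraries overlapped in all 10 genes, whereas over all genes they did not overlap in 3.61% with bexarotene higher and 2.16% with bexarotene lower. The fitted log2 fold change was positive for 3 genes (Gad2, Sst and Calb2) and negative for 7, with a median of -0.11; over all genes it was positive in 50.2%, with a median of 0.00092.

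**Figure D1:**
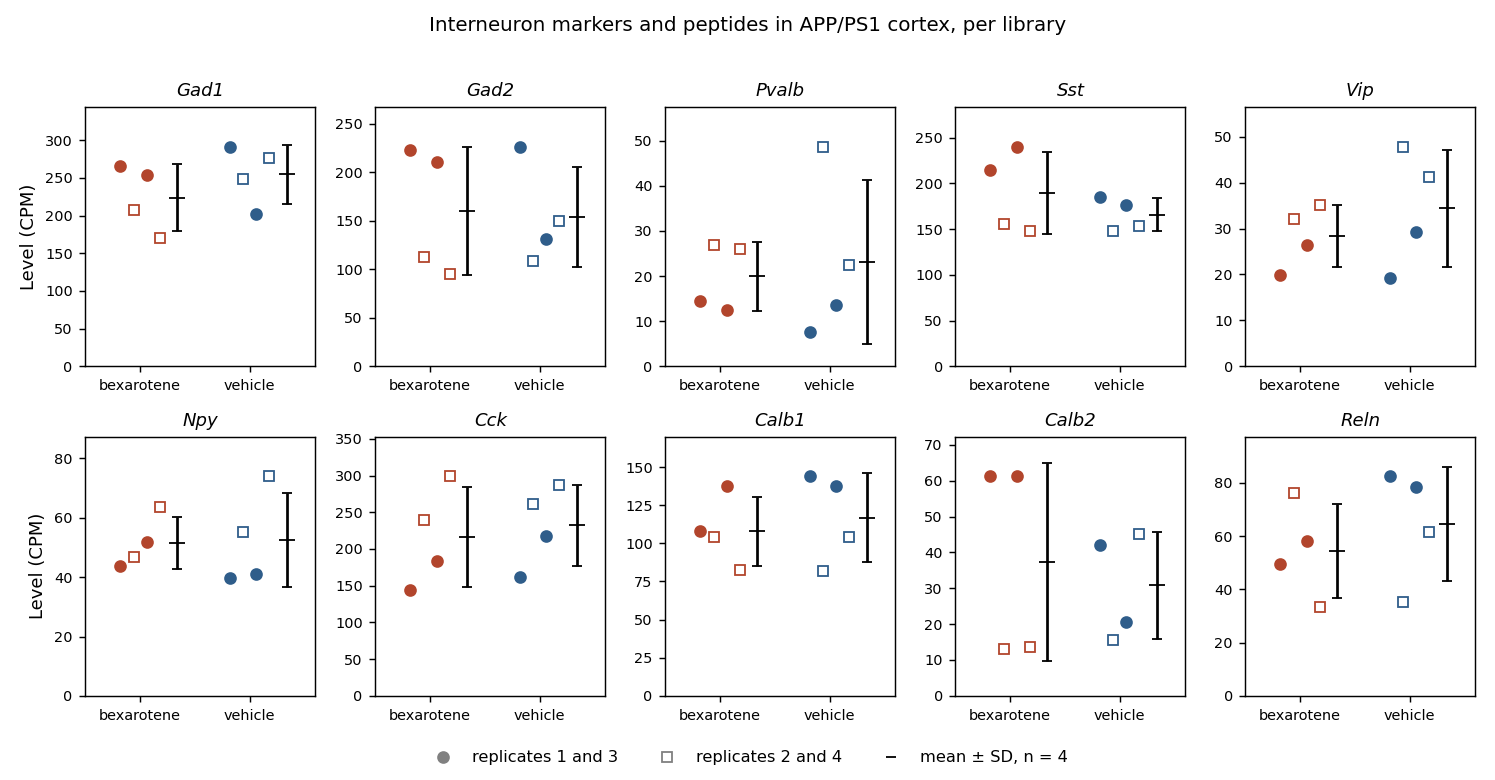
Level of each of the 10 genes in CPM, bexarotene libraries on the left and vehicle libraries on the right of each panel; filled circles are replicates 1 and 3, open squares replicates 2 and 4, and the bars show the mean ± SD of 4 libraries. The groups overlap in every panel, and for Pvalb, Vip and Cck the circles of both groups lie below the squares.

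Of the GABA-synthesising enzymes, Gad1, which encodes the cell-wide isoform GAD67, had 265, 207, 253 and 169.9 CPM in bexarotene replicates 1 to 4, against 292, 249, 203 and 277 CPM in vehicle replicates 1 to 4. Vehicle replicate 3 lay below 3 of the 4 bexarotene libraries and the other vehicle libraries lay among or above them. Gad1 averaged 224 ± 43.9 CPM with bexarotene and 255 ± 39.1 CPM with vehicle (SD, n = 4), and its log2 fold change was -0.19 ± 0.16 (SE; edgeR, adjusted p = 0.791). Gad2, which encodes the GAD65 isoform of nerve terminals, had 223, 113, 210.3 and 95.0 CPM in bexarotene replicates 1 to 4, against 226, 108, 131 and 149.6 CPM in vehicle replicates 1 to 4. Its 3 highest libraries, bexarotene replicates 1 and 3 and vehicle replicate 1, were those with the most striatal marker RNA, and they stood at 210.3 CPM or more while no other library passed 149.6 CPM. Gad2 averaged 160.2 ± 65.6 CPM with bexarotene and 154 ± 51.2 CPM with vehicle (SD, n = 4), and its log2 fold change was 0.06 ± 0.33 (edgeR, adjusted p = 0.984).

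The estimates of both enzymes were also taken with striatal RNA adjusted for. With the mean log2 level of the 10 striatal markers as a covariate, the log2 fold change of Gad2 was -0.38 ± 0.11 (edgeR, unadjusted p = 0.00451, adjusted p = 0.413) and that of Gad1 was -0.34 ± 0.13 (unadjusted p = 0.0219, adjusted p = 0.476). In that fit these 2 of the 10 genes had an unadjusted p below 0.05, as had 4.89% of all genes with a negative and 4.66% with a positive estimate. The other fit left out the 3 libraries of highest striatal level and kept bexarotene replicates 2 and 4 and vehicle replicates 2, 3 and 4. Of these, only vehicle replicate 3 lay with replicates 1 and 3 on the first principal component, so the groups were not balanced over that division. Without the 3 libraries of highest striatal level, the log2 fold change was -0.32 ± 0.15 for Gad2 (edgeR, unadjusted p = 0.0715) and -0.36 ± 0.15 for Gad1 (unadjusted p = 0.0459), both at an adjusted p of 0.9999. Gad1 alone of the 10 was then below 0.05 unadjusted, as were 1.37% of all genes with a negative and 1.44% with a positive estimate. Neither adjustment brought a call, and the part of striatal tissue in the unadjusted values was not tested beyond these fits.

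Pvalb encodes parvalbumin, the calcium buffer of fast-spiking basket and chandelier cells. It had 14.5, 26.9, 12.4 and 26.1 CPM in bexarotene replicates 1 to 4, against 7.50, 48.7, 13.6 and 22.5 CPM in vehicle replicates 1 to 4. The vehicle libraries spanned the whole range of the bexarotene libraries, and in both groups replicates 2 and 4 were the higher ones. Pvalb averaged 20.0 ± 7.60 CPM with bexarotene and 23.1 ± 18.2 CPM with vehicle (SD, n = 4), and its log2 fold change was -0.21 ± 0.57 (edgeR, adjusted p = 0.956). Leaving out vehicle replicate 2 gave 0.46, so that 1 library set the sign.

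Sst encodes preprosomatostatin, the precursor of a peptide released by interneurons that target dendrites. Bexarotene replicates 1 to 4 had 215, 155, 240.3 and 148 CPM of Sst, against 185, 148, 177 and 153 CPM in vehicle replicates 1 to 4. Bexarotene replicates 1 and 3 exceeded every vehicle library, while bexarotene replicates 2 and 4 lay at the level of vehicle replicates 2 and 4. Sst averaged 189.7 ± 45.2 CPM with bexarotene and 166 ± 18.2 CPM with vehicle (SD, n = 4), and its log2 fold change was 0.20 ± 0.16 (edgeR, adjusted p = 0.787). The 95% interval of that log2 fold change ran from -0.16 to 0.55. Replicates 1 and 3 alone gave 0.33 and replicates 2 and 4 alone 0.01, while the value was -0.07 without the 3 libraries of highest striatal level and -0.04 with an offset for transcript length and GC content.

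Vip encodes vasoactive intestinal peptide, released by interneurons that mainly inhibit other interneurons. Its level was 20.0, 32.2, 26.3 and 35.1 CPM in bexarotene replicates 1 to 4, against 19.2, 47.9, 29.2 and 41.3 CPM in vehicle replicates 1 to 4. At each replicate number except the first, the vehicle library was the higher of the pair. Vip averaged 28.4 ± 6.69 CPM with bexarotene and 34.4 ± 12.7 CPM with vehicle (SD, n = 4), and its log2 fold change was -0.28 ± 0.28 (edgeR, adjusted p = 0.841).

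Npy encodes neuropeptide Y, made by neurogliaform cells and part of the somatostatin cells. It had 43.6, 46.7, 51.7 and 63.5 CPM in bexarotene replicates 1 to 4, against 39.8, 55.1, 41.0 and 74.1 CPM in vehicle replicates 1 to 4. Replicate 4 was the highest library of both groups, and the bexarotene values lay inside the vehicle range. Npy averaged 51.4 ± 8.74 CPM with bexarotene and 52.5 ± 16.0 CPM with vehicle (SD, n = 4), and its log2 fold change was -0.03 ± 0.20 (edgeR, adjusted p = 0.988). Its 95% interval, from -0.49 to 0.43, was among the narrower ones of the 10 genes.

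Cck encodes cholecystokinin, the peptide of a class of basket cells and also of many pyramidal cells. It had 144, 239, 183 and 299 CPM in bexarotene replicates 1 to 4, against 162, 261, 218 and 287 CPM in vehicle replicates 1 to 4. Replicates 1 and 3 of both groups lay below replicates 2 and 4 of both groups. Cck averaged 216 ± 67.7 CPM with bexarotene and 232 ± 54.6 CPM with vehicle (SD, n = 4), and its log2 fold change was -0.10 ± 0.24 (edgeR, adjusted p = 0.948).

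In bexarotene replicates 1 and 3 and vehicle replicate 1, Sst was higher and Vip and Cck were lower than in all other libraries. For these 3 peptide genes the sequences just before the transcription start are shown, with matches to the cAMP response element in capitals. This element, TGACGTCA, is bound by the activity-regulated factor CREB and was first worked out on the somatostatin gene; TGACGT and CGTCA are shorter stretches of it. The sequences are RefSeq's on build GRCm38.p6, 120 bases read 5′ to 3′ on the strand of the gene and ending at the base before the start.
Sst, chr16:23890845-23890964, minus strand: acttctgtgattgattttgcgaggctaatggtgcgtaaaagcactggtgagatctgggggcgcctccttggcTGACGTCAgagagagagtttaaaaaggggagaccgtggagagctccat
Vip, chr10:5639098-5639217, plus strand: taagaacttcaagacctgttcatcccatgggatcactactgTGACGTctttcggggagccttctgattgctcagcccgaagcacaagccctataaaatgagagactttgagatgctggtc
Cck, chr9:121495695-121495814, minus strand: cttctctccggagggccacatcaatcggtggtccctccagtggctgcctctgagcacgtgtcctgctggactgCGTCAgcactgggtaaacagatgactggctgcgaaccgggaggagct
The Sst promoter held the whole element, beginning 48 bases before the start, Vip held TGACGT from 79 bases before the start, and Cck held CGTCA from 47 bases before the start. Searched on both strands in the 250 bases before each start, the whole element was in 1.55% of 32851 promoters, TGACGT in 6.47% and CGTCA, which overlaps both, in 17.8%. Gad2, which was also higher in those 3 libraries, held CGTCA too. The hexamer AGGTCA, recognised by retinoid X receptors and their partners, was in 14.0% of all promoters and in 0 of the 9 promoters listed for 8 of the 10 genes; Calb1 and Calb2 were not in that table. A match in these letters is a description and not a shown binding site, and its relation to the levels was not tested.

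Among the other calcium-binding proteins, Calb1 encodes calbindin, found in part of the somatostatin cells and in superficial pyramidal cells. It had 108, 104, 138 and 82.6 CPM in bexarotene replicates 1 to 4, against 144, 81.6, 137 and 104 CPM in vehicle replicates 1 to 4. Each group held high and low libraries across nearly the same range. Calb1 averaged 108 ± 22.6 CPM with bexarotene and 117 ± 29.2 CPM with vehicle (SD, n = 4), and its log2 fold change was -0.11 ± 0.20 (edgeR, adjusted p = 0.924). The length and GC offset made it 0.13.

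Calb2, which encodes calretinin, a marker of many vasoactive intestinal peptide cells, had the largest within-group SD of log2 level of the 10 genes. It had 61.3, 13.2, 61.2 and 13.5 CPM in bexarotene replicates 1 to 4, against 41.9, 15.5, 20.6 and 45.1 CPM in vehicle replicates 1 to 4. The bexarotene libraries formed a high pair and a low pair, and the vehicle libraries did so too, but with replicate 4 in the place of replicate 3. Calb2 averaged 37.3 ± 27.6 CPM with bexarotene and 30.8 ± 14.9 CPM with vehicle (SD, n = 4), and its log2 fold change was 0.28 ± 0.64 (edgeR, adjusted p = 0.945). The 3 libraries with the most striatal markers were among the 4 highest. Vehicle replicate 4, the other high library, had the highest summed level of 5 olfactory bulb markers, 86.5 CPM, against 15.8 to 45.2 CPM in bexarotene libraries and 14.0 to 50.6 CPM in the other vehicle libraries. Leaving out vehicle replicate 4 gave 0.53 for Calb2, and without the 3 libraries of highest striatal level it was -1.02 ± 0.48, at an adjusted p of 0.9999. The latter fit kept vehicle replicate 4, and its bexarotene libraries were replicates 2 and 4 alone.

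Reln encodes reelin, a secreted glycoprotein that guides cortical layering in development and is made by interneurons of the outer layers in the adult. It had 49.7, 76.3, 58.0 and 33.5 CPM in bexarotene replicates 1 to 4, against 82.5, 35.4, 78.3 and 61.6 CPM in vehicle replicates 1 to 4. Replicate 2 was the highest of the bexarotene libraries and the lowest of the vehicle libraries. Reln averaged 54.4 ± 17.8 CPM with bexarotene and 64.5 ± 21.4 CPM with vehicle (SD, n = 4), and its log2 fold change was -0.24 ± 0.31 (edgeR, adjusted p = 0.885).

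The size of difference that these libraries leave possible varied widely between the genes. The 95% interval of the log2 fold change was narrowest for Gad1 (-0.54 to 0.16) and Sst, and widest for Calb2 (-1.22 to 1.77) and Pvalb (-1.54 to 1.12). An exact two-sided permutation test over the 8 libraries, which can give no p below 0.0286, gave values between 0.314 for Gad1 and 1 for Npy and Calb2. Within replicates 1 and 3 the difference in mean log2 level was positive for 6 genes and was highest for Calb2 (1.06) and lowest for Reln (-0.58). Within replicates 2 and 4 it was positive for 3 genes, with Calb2 lowest (-0.98), Gad1 at -0.48 and Vip at -0.40, and Reln highest (0.12). The test of the difference between these estimates, an interaction term in edgeR chosen after the values were seen, passed for none of the 10 genes after adjustment, the lowest adjusted p being 0.298. In that edgeR fit the unadjusted p was 0.0259 for Sst, 0.0272 for Calb2 and 0.0409 for Gad1 and 0.0919 or more for the other 7; 13.3% of all genes were below 0.05. Of all 16069 genes, 0 were called for the interaction after adjustment.

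**Figure D2:**
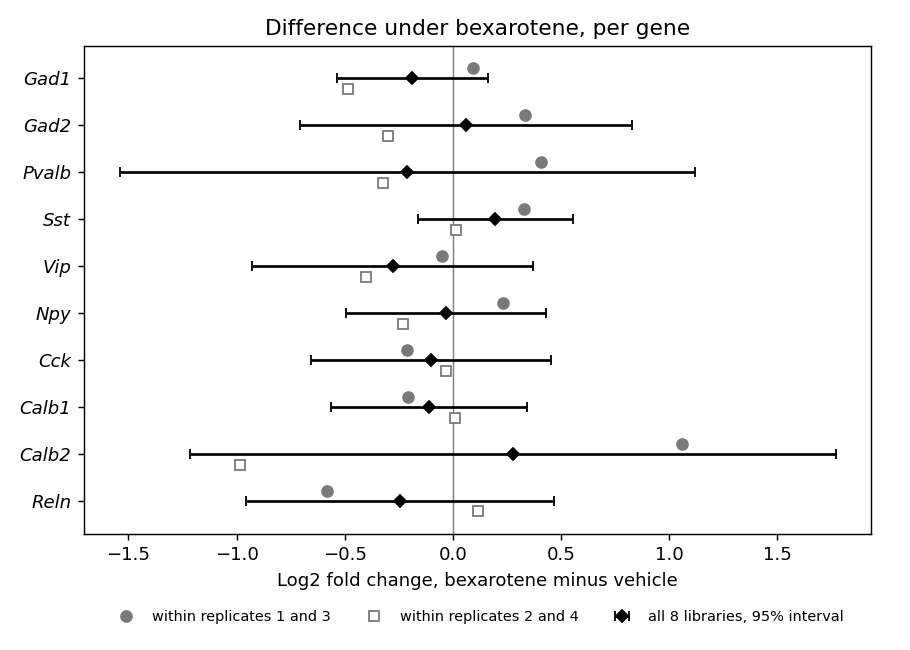
Log2 fold change of each gene, bexarotene minus vehicle, with black diamonds and 95% intervals from all 8 libraries; grey circles and open squares give the difference of mean log2 CPM within replicates 1 and 3 and within replicates 2 and 4. Every interval includes 0, and Calb2 has the widest gap between circle (1.06) and square (-0.98).

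All 10 genes varied more between libraries of the same group than most genes did. The pooled within-group SD of log2 CPM was 0.15 at the median of 9223 genes with a mean of at least 10 CPM. It was 1.04 for Calb2 and 0.90 for Pvalb, higher than in 99.5% and 99.2% of those genes, and 0.54 for Gad2 and 0.53 for Reln, higher than in 97.2% and 97.1%. The least variable were Gad1 and Sst, both at 0.27, which still exceeded 83.9% and 84.3% of the genes. Across all 8 libraries the highest level of Pvalb was 6.49 times the lowest and that of Calb2 4.65 times, while for Sst the ratio was 1.63.

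Part of this variation ran along the replicate numbers. In 5 of the 10 genes, replicates 1 and 3 of both groups did not overlap with replicates 2 and 4 of both groups. Pvalb, Vip and Cck were lower in replicates 1 and 3: Pvalb had at most 14.5 CPM there and at least 22.5 CPM in replicates 2 and 4, Vip averaged 23.7 and 39.1 CPM, and Cck 177 and 272 CPM. Sst (204 and 151 CPM) and Calb1 (132 and 93.1 CPM) were higher in replicates 1 and 3. Over all genes tested, 6.47% were higher and 7.22% lower in replicates 1 and 3 without overlap. This division of the libraries was read from the same data, so no test is given, and in vehicle libraries it cannot be told apart from that by Xist and Y-linked transcripts. Among bexarotene libraries, Xist was at 180 and 116 CPM in replicates 1 and 3 and at 84.7 and 218 CPM in replicates 2 and 4. The summed Y-linked level was 17.1 and 55.8 CPM in the former and 88.5 and 9.81 CPM in the latter, so both overlapped across the division there.

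Against the narrower set of 3 libraries rich in striatal markers, 4 genes showed no overlap with the other 5 libraries. Gad2 and Sst were higher in bexarotene replicates 1 and 3 and vehicle replicate 1, and Vip and Cck were lower. Over all genes, 7.62% were higher and 6.53% lower in those libraries without overlap. The relative levels show the same sets: Gad2 was at 0.58, 0.50 and 0.61 above the mean of the 8 libraries on the log2 scale in bexarotene replicates 1 and 3 and vehicle replicate 1, and Vip at -0.59, -0.19 and -0.64.

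**Figure D3:**
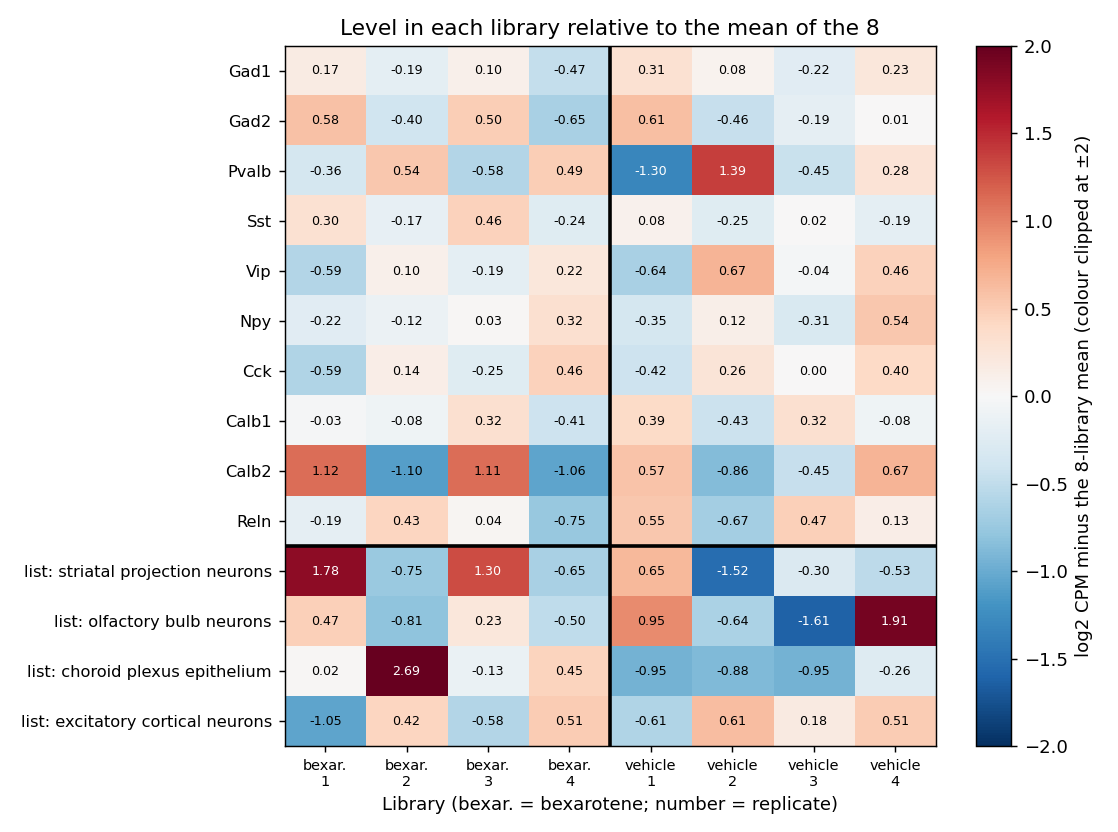
Log2 CPM of each gene in each library minus its mean over the 8 libraries, bexarotene on the left and vehicle on the right of the vertical line; rows under the horizontal line give the mean of marker lists for other regions or cell types on the same scale. Gad2 is red where the striatal list is red (1.78, 1.304 and 0.65), Calb2 is red there and in vehicle replicate 4, where the olfactory bulb list is at 1.91, and bexarotene replicate 2 stands apart for choroid plexus markers (2.69).

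**Figure D4:**
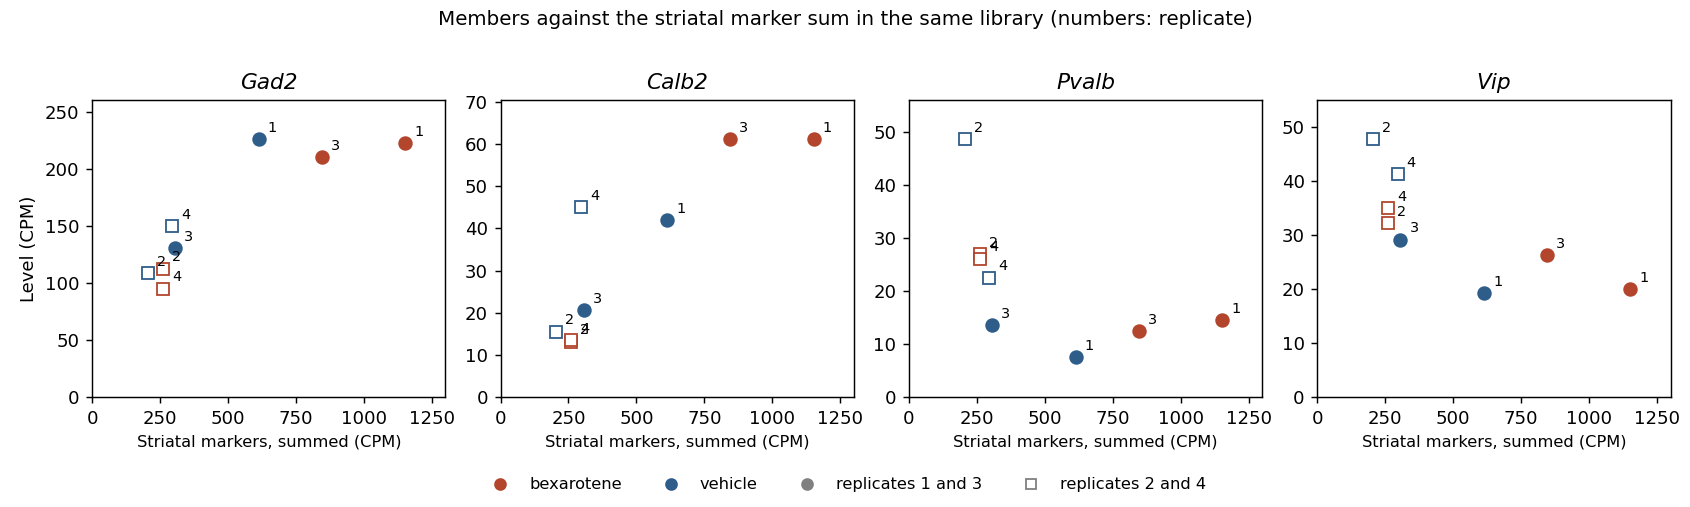
Level of Gad2, Calb2, Pvalb and Vip in CPM against the summed CPM of 10 striatal markers in the same library, with the replicate number beside each point; red marks bexarotene, blue vehicle, filled circles replicates 1 and 3 and open squares replicates 2 and 4. The 3 libraries over 600 CPM of striatal markers hold the highest Gad2 and the lowest Vip, and vehicle replicate 4 has 45.1 CPM of Calb2 at 295 CPM of striatal markers.

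Levels were also expressed relative to the GABA enzyme transcripts of the same library. Gad2 was itself higher in the 3 libraries rich in striatal markers than in the other 5, so these ratios are not free of that difference between libraries. The log2 ratio of each of the other 8 genes to the mean of Gad1 and Gad2 was compared between groups with exact two-sided permutation tests adjusted over the 8 comparisons. None passed, and each adjusted p was 1. Sst had the largest difference, with a mean log2 ratio of 0.03 ± 0.16 with bexarotene and -0.23 ± 0.27 with vehicle (SD, n = 4), a difference of 0.26 with an unadjusted exact permutation p of 0.2. For the other 7 genes the differences lay between -0.14 for Reln and 0.13 for Pvalb.

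Per kilobase of transcript, the order of the 10 genes over all 8 libraries was Cck, Sst, Npy, Gad1, Gad2, Calb1, Calb2, Pvalb, Vip and Reln. Cck averaged 324 ± 83.3 CPM per kilobase and Sst 246 ± 47.7 (SD, n = 8), and Cck was the higher of these neighbours in 5 of 8 libraries, so their ranges overlapped. Sst exceeded Npy, at 91.8 ± 21.1 CPM per kilobase, in 8 of 8 libraries with no overlap of the ranges. Npy and Gad1 (71.4 ± 12.5) overlapped, with Npy higher in 6 of 8 libraries. Gad1 exceeded Gad2 (27.3 ± 9.51) in 8 of 8. Gad2, Calb1 (26.6 ± 5.84), Calb2 (23.8 ± 14.6), Pvalb (22.6 ± 13.6) and Vip (20.5 ± 6.50) could not be ordered, since each neighbour was the higher in only 4 or 5 of 8 libraries. Reln was the lowest, at 5.08 ± 1.62 CPM per kilobase, and lay under Vip in 8 of 8 libraries. Each gene's length is that of the GENCODE transcript matched to its RefSeq accession, from 566 nt for Npy to 11699 nt for Reln.

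**Figure D5:**
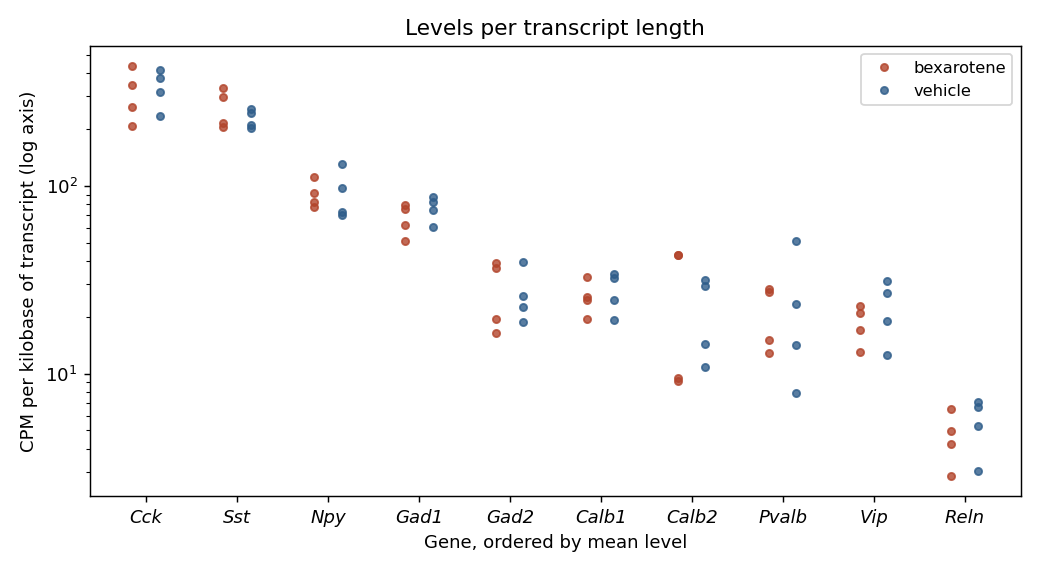
CPM per kilobase of transcript on a log axis, 1 point per library, bexarotene in red to the left and vehicle in blue to the right of each gene's position, with genes ordered by their mean over the 8 libraries. Cck and Sst lie highest, Reln lies lowest at 2.87 to 7.05 CPM per kilobase, and the 5 genes from Gad2 to Vip overlap.

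Genes that work with these markers were followed in 6 further lists, and 0 of their genes passed in edgeR with adjustment over all rows. DESeq2, voom and the exact test of edgeR also called 0, beside their counts over all genes given above. At an unadjusted p below 0.05, 4 genes of the 6 lists had a negative log2 fold change and 0 a positive one. Over all genes tested, 3.89% were lower and 4.88% higher at that threshold. Of 34 genes that mark interneuron subclasses or set their fate, 8 had a positive log2 fold change and 26 a negative one (median -0.15), 1 with an unadjusted p below 0.05. That gene was Cnr1, the cannabinoid receptor on terminals of cholecystokinin basket cells, with 86.3, 112, 104 and 103 CPM in bexarotene replicates 1 to 4, against 129, 94.0, 142 and 174 CPM in vehicle replicates 1 to 4. Vehicle replicate 2 fell among the bexarotene libraries, and the log2 fold change was -0.41 ± 0.17 (edgeR, adjusted p = 0.558). Next in that list were the tachykinin gene Tac2 (-0.33 ± 0.15) and the phosphodiesterase gene Pde1a (-0.30 ± 0.14), at adjusted p values of 0.593 and 0.594.

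For the handling of GABA itself, 6 of 11 genes had a positive and 5 a negative log2 fold change (median 0.02), and 0 had an unadjusted p below 0.05. Aldh5a1, which completes GABA breakdown, had a log2 fold change of -0.15 ± 0.07 (edgeR, adjusted p = 0.622). Slc38a1, a glutamine carrier, had -0.15 ± 0.09.

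Among 14 tested receptors for the interneuron peptides and reelin, 2 had a positive and 12 a negative log2 fold change (median -0.07), and 2 had an unadjusted p below 0.05, both negative. Lrp8, a reelin receptor, had 47.3, 47.1, 45.2 and 51.9 CPM in bexarotene replicates 1 to 4, against 62.8, 51.2, 55.9 and 62.5 CPM in vehicle replicates 1 to 4. A single crossing, bexarotene replicate 4 above vehicle replicate 2, kept the groups from separating. The log2 fold change of Lrp8 was -0.28 ± 0.09 (edgeR, unadjusted p = 0.01, adjusted p = 0.469), and the exact permutation test gave p = 0.0571. Vipr2, a receptor for vasoactive intestinal peptide, was low throughout, with means of 0.790 ± 0.299 CPM with bexarotene and 1.81 ± 1.17 CPM with vehicle (SD, n = 4). The difference was -1.20 ± 0.52 on the log2 scale (edgeR, adjusted p = 0.571). The cholecystokinin receptor Cckbr had -0.24 ± 0.18. Cckar was below the filter on low counts and was not tested.

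Of 14 genes for peptide processing and dense-core granules, 5 had a positive and 9 a negative log2 fold change (median -0.04), and 1 had an unadjusted p below 0.05. Pcsk1, the prohormone convertase PC1/3 that cleaves peptide precursors, had 11.3, 16.9, 13.1 and 17.2 CPM in bexarotene replicates 1 to 4, against 22.8, 18.6, 18.1 and 18.8 CPM in vehicle replicates 1 to 4. Every bexarotene library lay below every vehicle library, as was so for 2.16% of all genes, and the exact permutation test gave its smallest possible p, 0.0286. Its log2 fold change of -0.42 ± 0.15 had an adjusted p of 0.499 in edgeR. Replicates 1 and 3 alone gave -0.74, replicates 2 and 4 alone -0.13, and the value was -0.11 without the 3 libraries of highest striatal level, but negative in each of these. The carboxypeptidase gene Cpd had -0.23 ± 0.13 and Cadps2, which primes dense-core vesicles for release, -0.17 ± 0.13.

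Perineuronal nets are coats of proteoglycans around parvalbumin cells. Of 7 net genes, 1 had a positive and 6 a negative log2 fold change (median -0.13), with the link protein gene Hapln1 at -0.22 ± 0.15, the core proteoglycan gene Acan at -0.28 ± 0.19 and Ncan at -0.11 ± 0.08. Of 11 tested calcium-binding proteins related to those above, 3 had a positive and 8 a negative one (median -0.07), with Necab1 at -0.41 ± 0.23 and Vsnl1 at -0.24 ± 0.18. Scgn, at -1.59 ± 1.13, rested on vehicle replicate 4, which had 3.37 CPM while no other library passed 0.941 CPM and vehicle replicate 2 had 0. In both lists 0 genes had an unadjusted p below 0.05, and every adjusted p of the named genes was 0.681 or more (edgeR).

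The list genes whose levels ran closest to a marker over the 8 libraries were measured by the root mean square difference of the log2 levels after each gene's mean was subtracted. Sst was nearest to Lhx6, a transcription factor of the lineage that gives rise to somatostatin and parvalbumin cells, at 0.11, where Sst itself varied by 0.25 on the same measure. Gad2 was nearest to Slc32a1, the vesicular GABA transporter, at 0.18 against its own 0.47. Cck was nearest to Pcsk2, a prohormone convertase, at 0.11 against 0.36, and Npy to Camk2a at 0.16 against 0.29. Vip was nearest to Emx1 (0.19 against 0.44), Pvalb to Lamp5 (0.34 against 0.78), Calb2 to the olfactory bulb list's Pbx3 (0.28 against 0.90), and Calb1 and Reln both to the reelin receptor gene Vldlr (0.14 against 0.30, and 0.30 against 0.47). The libraries differed in region content and depth, and likeness on this measure describes these 8 libraries alone.

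Marker lists of other cells and regions stood as follows beside these values. All 10 striatal markers had a positive log2 fold change (median 0.89), with summed levels of 260.5 to 1152 CPM with bexarotene and 205 to 613 CPM with vehicle, and Ido1 was at 0 in vehicle replicate 2. All 7 excitatory cortical markers had a negative one (median -0.26). It was positive for 1 of 5 olfactory bulb markers, with Eomes at 0 in vehicle replicate 3, for 1 of 5 dentate gyrus markers, 5 of 6 thalamic markers and 5 of 7 tested hypothalamic markers. Avp, a hypothalamic peptide singled out after its values were seen, had 48.5, 0.846, 25.5 and 0.654 CPM in bexarotene replicates 1 to 4, against 68.5, 1.52, 0.789 and 1.83 CPM in vehicle replicates 1 to 4, high in the same 3 libraries as the striatal markers. Choroid plexus markers were positive in 6 of 6, astrocyte markers in 4 of 5, and oligodendrocyte, microglia and endothelial markers in 5 of 5 each. By edgeR 0 of these genes were called. At an unadjusted p below 0.05, 7 of them, 3 of choroid plexus and 4 of microglia, were higher with bexarotene and 0 were lower. Over all genes tested, 4.88% were higher and 3.89% lower at that threshold. Apart from the striatal fits given above, the part of these cells in the marker values was not tested.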

How the data were processed

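The authors deposited 1 table of raw read counts per RefSeq transcript, 28644 rows for 22869 symbols, from stranded mRNA libraries per the labels' protocols. The submitters' processing notes name build mm9 and edgeR; aligner, counter, strand setting and annotation release: not given in the sources used here. Titles gave each library's group and replicate number. No column of the deposited counts was left out.

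Counts of all 8 libraries were fitted with edgeR 4.0.16 (R 4.3.3): default low-count filter, TMM factors, robust quasi-likelihood F test on group alone, Benjamini-Hochberg adjustment over 21285 rows for 16069 genes, each gene read out at its row of highest mean count. Lamp5, under another symbol in the table, was matched by RefSeq accession. The threshold was an adjusted p of 0.05. Log2 levels used a prior count of 2. Standard errors come from the F statistic, intervals from its degrees of freedom. Alternatives included DESeq2 1.42.0 and limma 3.58.1. The functions were tested on simulated data. Transcript lengths, from GENCODE M21, covered 98.0% of the genes tested; promoter coordinates are on GRCm38.p6 and were not compared with mm9.

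Same-numbered libraries deviated together from the group means, with correlations of 0.43, 0.28, 0.14 and 0.16. All were above 0.1, so the numbers were treated as pairs in an alternative fit. Bexarotene replicate 3 correlated better with vehicle replicate 1 (0.44), and bexarotene replicate 4 with vehicle replicate 2 (0.23), than with their own numbers. The 10 genes, the 6 pathway and 11 marker lists (161 entries) were chosen with earlier results of these data known. Named were all 10 genes, of each pathway list the 3 genes of smallest p, for each of the 10 its nearest list gene, and marker genes at 0 in a library; Avp was chosen after its values were seen. Some results of this rule are not reported here.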

Additional observations from a re-analysis of the deposited data

How the results depend on the processing

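The counts of the 10 genes called (0), of the 8 ratios to Gad1 and Gad2 called (0) and of pathway list genes called (0) were the same under every alternative run. At an unadjusted p below 0.05, 2 of the 10 genes passed with the striatal covariate and 1 without the 3 libraries of highest striatal level. The shares of all genes in these fits are given above. With the length and GC offset and the replicate block 2 of the 10 passed, and the share of all genes in that fit was not taken. That count therefore cannot be set against a background. In the other fits of bexarotene against vehicle over all genes, 0 passed. Signs of single genes did change under some alternatives, and the cause was not tested. The number of the 10 genes with a positive log2 fold change was 3, and it was 5 with the replicate block, 1 without the 3 libraries of highest striatal level, 6 within replicates 1 and 3, and 1 to 5 when 1 library was left out.

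Log2 fold changes of opposite sign were as follows. Within replicates 1 and 3, as the difference in mean log2 level: Gad1 0.0933, Pvalb 0.41 and Npy 0.23. Within replicates 2 and 4, on the same measure: Gad2 -0.30, Calb1 0.00877, Calb2 -0.98 and Reln 0.12. With the replicate block: Pvalb 0.0271 and Npy 0.00096. With the library cluster as a term: Gad2 -0.0167, Npy 0.00385 and Calb2 -0.0945. With the striatal covariate: Gad2 -0.38, Pvalb 0.55, Sst -0.0130, Vip 0.0672, Npy 0.0998, Cck 0.15 and Calb2 -0.76. Without the 3 libraries of highest striatal level: Gad2 -0.32, Sst -0.0666, Cck 0.0788 and Calb2 -1.02. With the length and GC offset: Sst -0.0364 and Calb1 0.13; with the offset and the replicate block: Sst -0.0405, Calb1 0.13, Calb2 -0.0694 and Hapln1 0.00025. Scgn was 0.45 with voom. Without vehicle replicate 4 and bexarotene replicate 2, an alternative chosen after seeing the data, Npy was 0.23 and Scgn 0.0131.

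Leaving out 1 library at a time gave -0.14 to 0.31 for Gad2, -0.50 to 0.46 for Pvalb, -0.14 to 0.19 for Npy, -0.29 to 0.0522 for Cck, -0.25 to 0.00523 for Calb1 and -0.0704 to 0.56 for Calb2. Without a change of sign it gave -0.28 to -0.0695 for Gad1, 0.0615 to 0.30 for Sst, -0.47 to -0.0727 for Vip and -0.45 to -0.0650 for Reln. The differences in log2 ratio to Gad1 and Gad2 ranged from -0.43 to 0.68 for Pvalb, -0.52 to 0.16 for Vip, -0.19 to 0.31 for Npy, -0.38 to 0.29 for Cck, -0.0913 to 0.16 for Calb1, -0.12 to 0.42 for Calb2 and -0.41 to 0.0567 for Reln. The replicate block changed no call. With 4 libraries a group, the intervals of the log2 fold changes stayed wide for Calb2 and Pvalb.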
